A study of Mus musculus with 6 samples.

Results

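The genes described here encode the protein components of the cytosolic ribosome. They were chosen by gene name as the array files give it: every non-control spot named Rpl or Rps followed by a number and at most 1 letter a, l or x, together with Rplp0, Rplp1, Rplp2 and Rpsa. This took 81 genes, 49 of the large (60S) and 32 of the small (40S) subunit, carried by 186 of the 55681 distinct probes on the array. Of them 80 could be tested, among 26635 genes tested in all. The gene left out of the tests, Rpl10l, a testis-expressed relative of Rpl10, was well above background on 1 of the 6 arrays only. Pseudogenes and the kinases of ribosomal protein S6 were not included.

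The 6 one-colour arrays each read RNA of mouse spleen, 3 from mice given 900 cGy of total body X-irradiation 24 h earlier and 3 from resting, unirradiated mice (0 cGy). All mice carried the strain name B10.BALB-16.C2A, no other genotype or treatment was given, and age was not given in the sources used here. Each array held whole-splenocyte RNA pooled from 3 mice, so that p-values measure the spread between pools and not between single mice. On each array between 39033 and 41261 probes were well above background, no spot was saturated, and precision is limited by there being 3 arrays a group. The comparison addresses how spleen transcripts differ 24 h after irradiation.

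A ribosome is built in the nucleolus from ribosomal RNA and about equal amounts of each ribosomal protein, and growing and dividing cells spend much of their transcription on it. Mouse messenger RNAs of ribosomal proteins are short, abundant and stable, and most begin with a run of pyrimidines, the 5′ terminal oligopyrimidine (TOP) tract, through which their translation follows the mTOR pathway. Free Rpl5 and Rpl11 bind Mdm2, the ubiquitin ligase of p53, when ribosome assembly fails. A few ribosomal proteins have a second gene, a paralog, with a narrower expression; the paralog of Rps27, Rps27l, is known as a p53 target.

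Most ribosomal protein genes fell by a small amount after irradiation, while Rps27l rose. With limma, 65 of 80 genes were lower at a Benjamini-Hochberg adjusted p under 0.05, 1 was higher and 14 did not pass. Over all genes tested, 31% were called lower and 28.3% higher, so the members were called lower far more often than the background. The median log2 change of the members was -0.43, a level 25.7% lower, against -0.06 over all genes tested. The middle of the distribution was narrow, between -0.57 and -0.30 at the quartiles, and 78 of 80 changes were negative. In 72 genes every irradiated array lay below every unirradiated array, in 1 gene every one lay above, and in 7 the groups overlapped; over all genes tested these shares were 35.7% lower and 31.7% higher without overlap. A level here is the log2 processed signal minus that of the 75th percentile of the same array. It reports the gene's share of spleen RNA, and fewer cells of a type and less RNA per cell cannot be told apart.

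**Figure D1:**
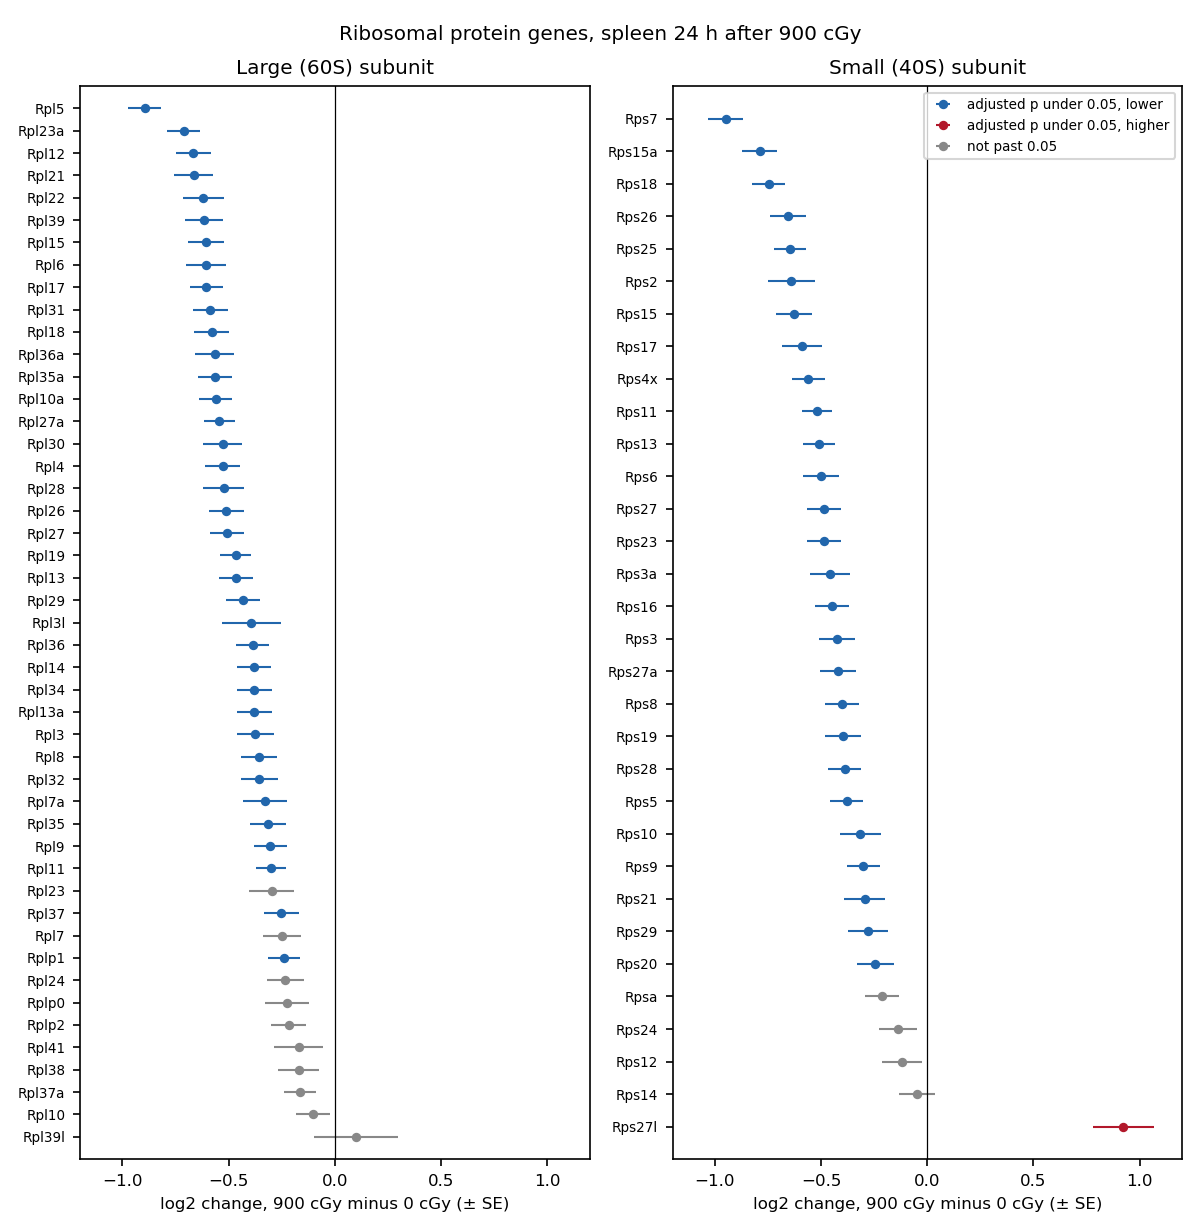
Log2 change, 900 cGy minus 0 cGy, of 79 of the 80 ribosomal protein genes tested, with its standard error (bars) and 3 arrays a group, large subunit on the left and small subunit on the right. Blue points passed an adjusted p of 0.05 as lower (64 genes drawn), the red point as higher (Rps27l), and grey points did not pass (14 genes).

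Counts and medians were close in both subunits. Of the large subunit, 38 of 48 genes were lower, 0 higher and the median log2 change was -0.41; of the small subunit, 27 of 32 were lower, 1 higher and the median was -0.44. On the 3 irradiated arrays the median over the members stood at -0.42, -0.46 and -0.44 relative to the mean of the unirradiated arrays, and 74, 78 and 73 of the 80 genes lay below all 3 unirradiated arrays, against 46.4%, 41.0% and 40.5% of all genes tested. The unirradiated arrays themselves stood at 0.01, 0.06 and -0.07. Within that group the second unirradiated array was the highest of the 3 for 57 genes and the third was the lowest for 67. Over all genes tested the medians of these 3 arrays stood at 0.00081, 0.011 and -0.0014. The same counts were not taken over all genes, and whether other bright genes share this order was not tested.

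**Figure D2:**
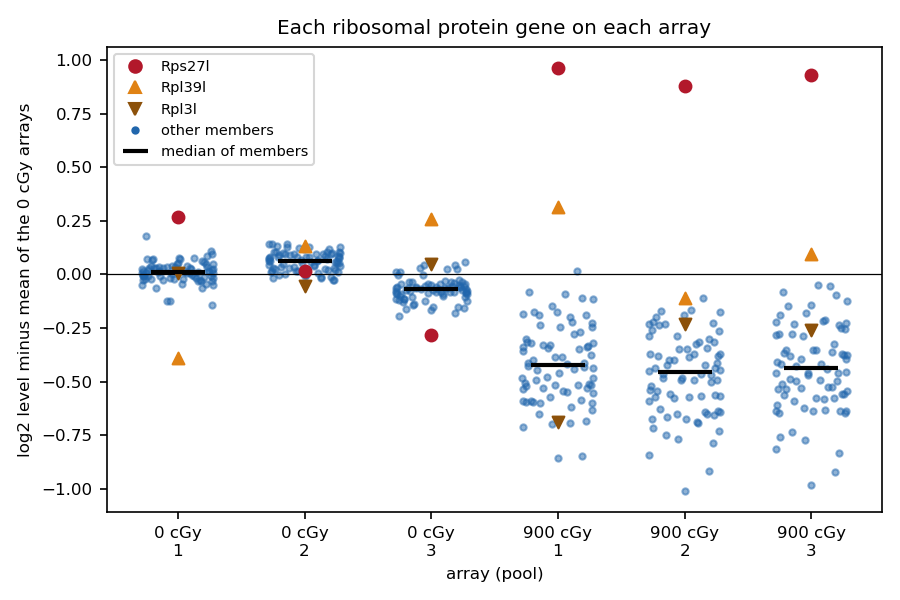
Log2 level of each of the 80 genes on each array minus its mean over the 3 unirradiated arrays. Small blue points are single genes, horizontal bars the median over members, and large symbols the paralogs Rps27l, Rpl39l and Rpl3l; the bars fall from between -0.07 and 0.06 to between -0.46 and -0.42, while Rps27l stands near 0.9 on all 3 irradiated arrays.

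The largest falls were in Rps7 and Rpl5. Rps7, a protein of the small subunit that also binds Mdm2 and is mutated in some families with Diamond-Blackfan anaemia, had levels of 6.97, 6.91 and 6.87 without irradiation and of 6.06, 5.91 and 5.94 after it (probe at chr12:29319087-29319146, mm9). The groups were far apart and the change was -0.95 (SE 0.0833, limma adjusted p = 0.000192), a 1.93-fold fall. Rpl5, which carries 5S ribosomal RNA into the large subunit together with Rpl11, went from 6.14, 6.23 and 6.25 to 5.36, 5.29 and 5.29 (probe at chr5:108333834-108333892, mm9). Its groups did not overlap either, and the change was -0.90 (SE 0.0776, adjusted p = 0.000185), a 1.86-fold fall. These and Rps15a had the 3 smallest adjusted p among the members.

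Rps15a, a protein of the small subunit, stood at 7.06, 7.15 and 7.12 and after irradiation at 6.40, 6.26 and 6.29, with no overlap and a change of -0.79 (SE 0.0804, limma adjusted p = 0.000331). Other large changes were those of Rps18 (-0.75), Rpl23a (-0.71), Rpl12 (-0.67) and Rpl21 (-0.66), all past the threshold and without overlap. Rpl23a lies at the exit of the peptide tunnel, where nascent chains meet the signal recognition particle, and Rpl12 belongs to the base of the stalk that recruits elongation factors. Among the 8 genes with the largest falls, 5 belonged to the large and 3 to the small subunit.

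Rpl11, the partner of Rpl5, was read by 3 probes. Its brightest went from 7.58, 7.61 and 7.59 to 7.27, 7.31 and 7.31, without overlap and with a change of -0.30 (SE 0.0721, limma adjusted p = 0.0113). Its other 2 probes fell by 0.51 and 0.56 (adjusted p = 0.00196 and 0.00275 over all probes). The difference from Rpl5 was not tested. By its brightest probe Rpl11 lost its call with quantile normalization, with or without normexp, and with the slide row as a block or row 1 alone (adjusted p up to 0.842), while Rpl5 kept its call under each of the 18 alternatives run, with changes from -1.17 to -0.77. Rpl23, another protein known to bind Mdm2, stood between 7.45 and 7.73 without and between 7.16 and 7.35 with irradiation and missed the threshold (-0.30, adjusted p = 0.0514). Rpl26, which binds the p53 messenger RNA, fell by 0.51 on the log2 scale (SE 0.0833, adjusted p = 0.00225), from 6.97 to 7.11 down to 6.47 to 6.59.

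Of the members known for other work in blood and lymphoid cells, Rpl22, whose loss stops alpha-beta T cell development, fell by 0.62 on the log2 scale (SE 0.0957, limma adjusted p = 0.00181). Rps19, the gene most often mutated in Diamond-Blackfan anaemia, went from 5.98, 5.97 and 6.01 to 5.71, 5.52 and 5.54, a fall of 0.40 without overlap (SE 0.0857, adjusted p = 0.00751). Rps14, whose loss on 1 copy is tied to the anaemia of the 5q deletion syndrome, read 8.06, 8.17 and 7.99 and then 8.09, 7.96 and 8.02. The groups of Rps14 overlapped and its change of -0.05 was the closest to 0 of all members (SE 0.0865, adjusted p = 0.654).

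Rps6, the substrate of the S6 kinases, fell by 0.50 on the log2 scale (adjusted p = 0.00258) and Rps3, which also acts in DNA base excision repair, by 0.42 (adjusted p = 0.00524), both by limma and both without overlap. Rpl13a, a member of the interferon-gamma activated inhibitor of translation complex, fell by 0.38 (adjusted p = 0.00712). Rps27a, made as a fusion with ubiquitin and so a source of free ubiquitin, fell by 0.42 (adjusted p = 0.00529). Of the stalk proteins, Rplp1 fell by 0.24 (limma adjusted p = 0.0350), while by their brightest probes Rplp0 stood at -0.23 (adjusted p = 0.104) and Rplp2 at -0.22 (adjusted p = 0.0584). The other 2 probes of Rplp0 fell by 0.45 and 0.28 (adjusted p = 0.00642 and 0.0255 over all probes). Rpsa, also known as the laminin receptor, was at -0.21 by its brightest probe (adjusted p = 0.0580), and its other 3 probes were all lower, with a mean change of -0.80.

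By their brightest probe, the 14 genes that did not pass were Rpl7, Rpl10, Rpl23, Rpl24, Rpl37a, Rpl38, Rpl39l, Rpl41, Rplp0, Rplp2, Rpsa, Rps12, Rps14 and Rps24. Of these, 13 had a negative change and 7 had groups that did not overlap. After Rps14, the changes nearest to 0 or above it were those of Rpl10 (-0.10), Rpl39l (0.10), Rps12 (-0.12), Rps24 (-0.14), Rpl37a (-0.17) and Rpl38 (-0.17). Rpl10 completes the maturation of the large subunit in the cytoplasm, and Rpl38 is known for its part in the translation of Hox messenger RNAs in the embryo.

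Size of change went with brightness. Over the 77 members with a mean level above 0, Rps27l left out, the Spearman correlation between mean level and log2 change was 0.70 and the Pearson correlation 0.63. With Rps27l kept, the 78 members gave 0.64 and 0.20. All 80 members, dim paralogs included, gave 0.56 and -0.07. All genes share the same 6 arrays and are not independent replicates. Over all genes tested 31% were lower, and the split by level that follows was not made for them. Split into 3 by level, the dimmest group (levels 5.33 to 6.88) had 26 of 26 genes lower with a median change of -0.59. The middle group had 23 of 26 lower with a median of -0.48, and the brightest (7.65 to 8.18) 15 of 25 with a median of -0.25. The same order was seen more often than not between probes of 1 gene, which need not read the same transcripts. Among 57 genes with 2 or more tested probes, the brightest probe fell less than the mean of the others in 39, with medians of -0.47 for the brightest and -0.57 for the others. No spot was saturated, and whether loss of linearity in bright spots has a part in these sizes was not tested.

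**Figure D3:**
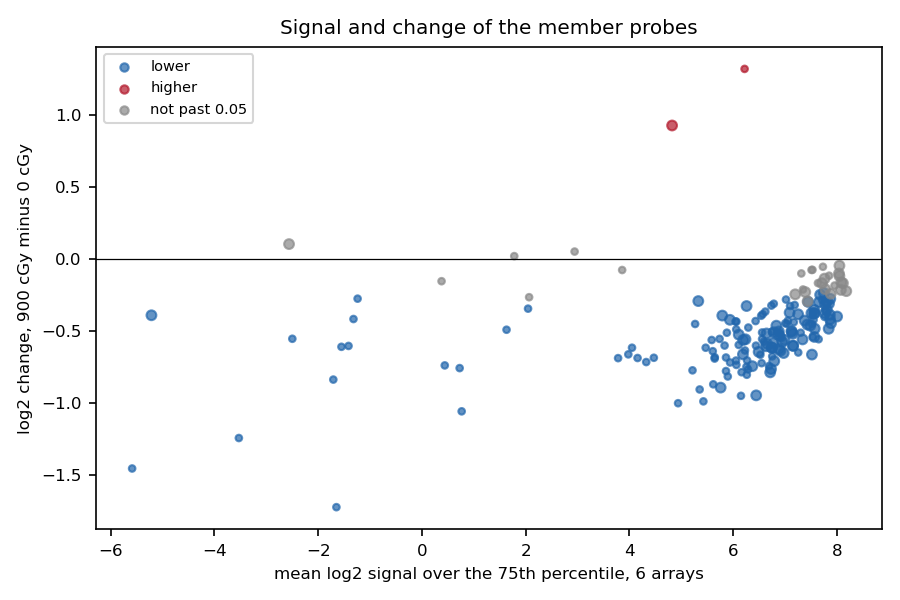
Log2 change against mean log2 signal of the 183 member probes tested, colour giving the call at an adjusted p of 0.05 and large points the probe that stands for its gene. Above a signal of about 5 the points rise towards 0 as signal rises; the 2 red points are the probe of Rps27l and a probe of Rps24.

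At the level of probes the fall was as general. Of 183 member probes tested, 153 were lower, 2 higher and 28 not past the threshold (background over 39673 probes: 31% lower and 26.4% higher), and 178 changes were negative with a median of -0.51. Of the 57 genes with several probes, 42 had all of them lower, 10 some and 5 none. Probes of 1 gene differed by a median of 0.24 from highest to lowest change. For Rpl13a and Rps27a, whose brightest probes are given above, the mean change of the other probes was larger, at -0.68 and -0.93, and for Rpl21 it was smaller, at -0.35. Of the 14 genes that missed the threshold by their brightest probe, 5 had another probe that was lower, namely Rpl7, Rpl24, Rplp0, Rpsa and Rps24. Rpl10, Rpl23, Rpl37a, Rpl38 and Rps12 each had several probes and none that passed. The files place 11 member probes on another chromosome than the gene, among them the reported probes of Rps27 and Rps29; ribosomal protein genes have many processed pseudogenes, and signal from such copies cannot be told apart from that of the gene.

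Rps27l was the only member higher. It encodes a protein close to Rps27, a zinc-finger protein of the small subunit, from a gene of its own on another chromosome. The probes of the pair are shown because the opposite changes rest on their telling the transcripts apart, and capitals mark a run of bases found in both, as long as any they share. The first is placed at chr9:66795486-66797176 and the second at chr9:114891517-114891576 (mm9), although the gene Rps27 lies on chromosome 3; both sequences are as given by the array files.
Rps27l probe: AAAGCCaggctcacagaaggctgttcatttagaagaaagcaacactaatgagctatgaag
Rps27 probe: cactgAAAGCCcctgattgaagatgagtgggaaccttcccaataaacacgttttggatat
The probes, each 60 bases long, share no run longer than 6 bases.

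Rps27l levels were 4.63, 4.38 and 4.08 in unirradiated spleen and 5.32, 5.24 and 5.29 after irradiation. Every irradiated array was above every unirradiated one, and the irradiated arrays lay closer together. The change was 0.92 (SE 0.145, limma adjusted p = 0.00194), a 1.90-fold rise. Rps27 went from 8.02, 8.18 and 8.05 to 7.59, 7.60 and 7.60, a fall of 0.49 on the log2 scale without overlap (SE 0.0810, limma adjusted p = 0.00246). Its 4 probes gave changes between -0.55 and -0.40. The files place all 4 at 1 site on chromosome 9, most of them overlapping, so they are not separate readings of the gene on chromosome 3. The log2 ratio of the 2 probes within an array was -3.39, -3.81 and -3.97 without and -2.27, -2.36 and -2.30 with irradiation, so that it rose by 1.41. An exact two-sided permutation test gave p = 0.1, the smallest that 3 arrays against 3 allow, and an adjusted p of 0.15 over 6 paralog pairs. The rise of Rps27l kept its call under all 18 alternatives, with changes between 0.65 and 1.06 and adjusted p between 0.000162 and 0.0461.

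None of the other paralogs passed the threshold as higher. Rpl39l, a testis-expressed relative of Rpl39, read -3.00, -2.48 and -2.36 and then -2.30, -2.72 and -2.52. Its groups overlapped (change 0.10, SE 0.198, limma adjusted p = 0.685), while Rpl39 itself fell by 0.62 (SE 0.0888, adjusted p = 0.00134). Rpl3l, the striated-muscle relative of Rpl3, was dim and went from -5.01, -5.07 and -4.97 to -5.70, -5.25 and -5.28. Its fall of 0.39 (SE 0.139) passed narrowly with an adjusted p of 0.0474, which reached 0.524 under the alternatives, where the change shrank to -0.06; Rpl3 fell by 0.38 (adjusted p = 0.0101).

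The differences of change within the 6 pairs, each as paralog minus partner, were 1.41 for Rps27l, 0.72 for Rpl39l, 0.31 for Rpl36al against Rpl36a, 0.29 for Rpl22l1 against Rpl22, -0.14 for Rpl7l1 against Rpl7 and -0.02 for Rpl3l. The first 4 had the smallest exact permutation p the design allows (0.1, adjusted 0.15), Rpl7l1 had 0.2 (adjusted 0.24) and Rpl3l 0.9. Rpl22l1 fell by 0.33 on the log2 scale (SE 0.0759, limma adjusted p = 0.00976) and Rpl7l1 by 0.39 (adjusted p = 0.0211), and Rpl36al stood at -0.25 (adjusted p = 0.0526).

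Rps24 was the only gene with probes called in both directions, and its probes are described here after their values were seen. The array carries 4 of them on chromosome 14. The files tie the probe that rose to 1 of the RefSeq transcripts of Rps24, transcript variant 1, and the first and the third probe in order of position to 3; the fourth names no RefSeq transcript. The transcripts of Rps24 are known to differ by the splicing of short exons near the 3′ end. The sequences are shown in order of position because the first and the second read other stretches of the transcript than the other two, which overlap; no base is in capitals, since the probe that rose shares no run longer than 6 bases with any of the others.
chr14:25311190-25312666: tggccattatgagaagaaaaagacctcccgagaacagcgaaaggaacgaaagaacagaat
chr14:25312695-25315015: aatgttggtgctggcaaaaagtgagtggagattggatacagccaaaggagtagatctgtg
chr14:25315021-25315080: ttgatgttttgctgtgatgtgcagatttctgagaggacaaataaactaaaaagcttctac
chr14:25315026-25315075: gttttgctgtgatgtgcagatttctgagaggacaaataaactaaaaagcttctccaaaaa
Positions are those of the files on mm9; the first and the second probe, each of 60 bases, cover 1477 and 2321 bases of genome and so cross splice junctions.

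The second, the variant 1 probe, read 5.40, 5.56 and 5.73 in unirradiated and 6.89, 6.91 and 6.84 in irradiated spleen. The groups were well apart, with a change of 1.32 (SE 0.108, limma adjusted p = 0.000163 over all probes), a 2.49-fold rise. The first probe, upstream of it, went from 6.24, 6.33 and 6.23 to 5.75, 5.95 and 5.79 and fell by 0.44 (SE 0.0925, adjusted p = 0.00697). The third, which stands for the gene in the counts above, read 7.86, 7.93 and 7.71 and then 7.71, 7.66 and 7.70, with overlapping groups and a change of -0.14 (adjusted p = 0.242). The fourth gave -0.17 (adjusted p = 0.249). Within arrays, the log2 ratio of the second to the third probe was -2.46, -2.37 and -1.98 without and -0.83, -0.75 and -0.87 with irradiation, a difference of 1.46. The exact two-sided permutation p was 0.1 for the second probe against each of the other 3 (adjusted 0.1), the smallest possible. Under the 5 other scalings the variant 1 probe rose by 1.05 to 1.50, and it passed the threshold under each alternative run at the level of probes.

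**Figure D4:**
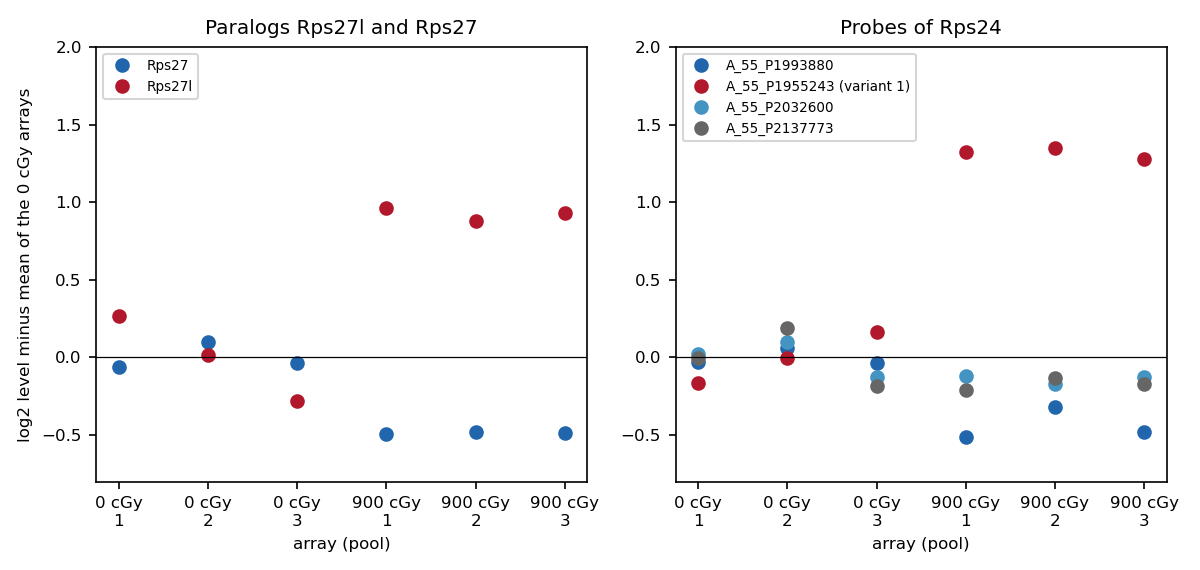
Log2 level on each array minus the mean over the 3 unirradiated arrays. On the left, Rps27l (red) rises to near 0.9 while Rps27 (blue) falls to near -0.5; on the right, of the 4 probes of Rps24, named by their array identifiers, the variant 1 probe (red) rises by 1.32 while the others fall by 0.44 or stand at -0.14 and -0.17.

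Rpl22 and Rpl15 also had a probe that stood apart, chosen here after its values were seen. In Rpl22 the reported probe fell by 0.62 while a dimmer one, placed 1497 bases downstream, read 2.88, 2.94 and 2.94 and then 3.01, 2.95 and 2.94, a change of 0.05 with overlapping groups (limma adjusted p = 0.625). In Rpl15 the reported probe fell by 0.61 and the other, 1069 bases away, was at 0.02 (adjusted p = 0.865) with levels between 1.73 and 1.81 on all 6 arrays. With spike-in scaling, which lowers all changes, these 2 probes turned to -0.22 and -0.25.

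A second look at the gene names added 1 exception. Rps4y2, a name outside the pattern that the RefSeq table lists as Rps4l, rose from 1.06, 1.32 and 1.35 to 2.65, 2.28 and 2.37, without overlap and with a change of 1.19 (SE 0.134, limma adjusted p = 0.000490). Rps4x, the X-linked gene of the same protein family, fell by 0.56 (adjusted p = 0.00120). Gm6251, the other name that would match only by its RefSeq symbol, was lower, with a change of -0.53 (SE 0.0865, limma adjusted p = 0.00222). Of 7 listed ribosomal protein genes outside the name pattern that were tested, Gm6251 not among them, 4 were lower, 1 was higher and 2 did not pass. Over all genes tested 31% were lower and 28.3% higher. Rack1, a scaffold on the small subunit, fell by 0.25 (limma adjusted p = 0.0464), and Fau was at -0.17 (adjusted p = 0.191).

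Other genes of protein synthesis were read from lists chosen by function. Their counts stand beside 31% lower and 28.3% higher over all genes tested. Of 54 genes of ribosome biogenesis, 47 were lower and 1 higher, with a median log2 change of -0.89. The largest falls were in Dkc1 (-1.89), the pseudouridine synthase of ribosomal RNA, and in Nop56 (-1.64) and Nop58 (-1.59), core proteins of the box C/D particles that guide ribosomal RNA methylation. Pes1, a factor of large subunit maturation, was the gene that rose (0.77, SE 0.117, limma adjusted p = 0.00174). The difference between this list and the ribosomal proteins was not tested.

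Of 11 elongation and release factors 10 were lower, with a median of -0.44 and the largest falls in Eef1e1 (-1.50), a cofactor of the aminoacyl-tRNA synthetase complex, Abce1 (-0.97), which recycles ribosomes, and Eif5a (-0.83). Of 34 initiation factors 25 were lower and 1 higher, with a median of -0.49. The largest changes were those of Eif5 (-1.12), Eif5b, which joins the subunits and rose by 0.92 (SE 0.166, limma adjusted p = 0.00350), and Eif3e (-0.86). Of 18 further genes known to carry a TOP tract, 16 were lower and 0 higher, with a median of -0.46 and the largest falls in Pabpc1 (-1.10), the poly(A)-binding protein, Eif3e and Nap1l1 (-0.85), a histone chaperone. The lists share genes with each other, and in each of the 6 scalings run their medians were negative.

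**Figure D5:**
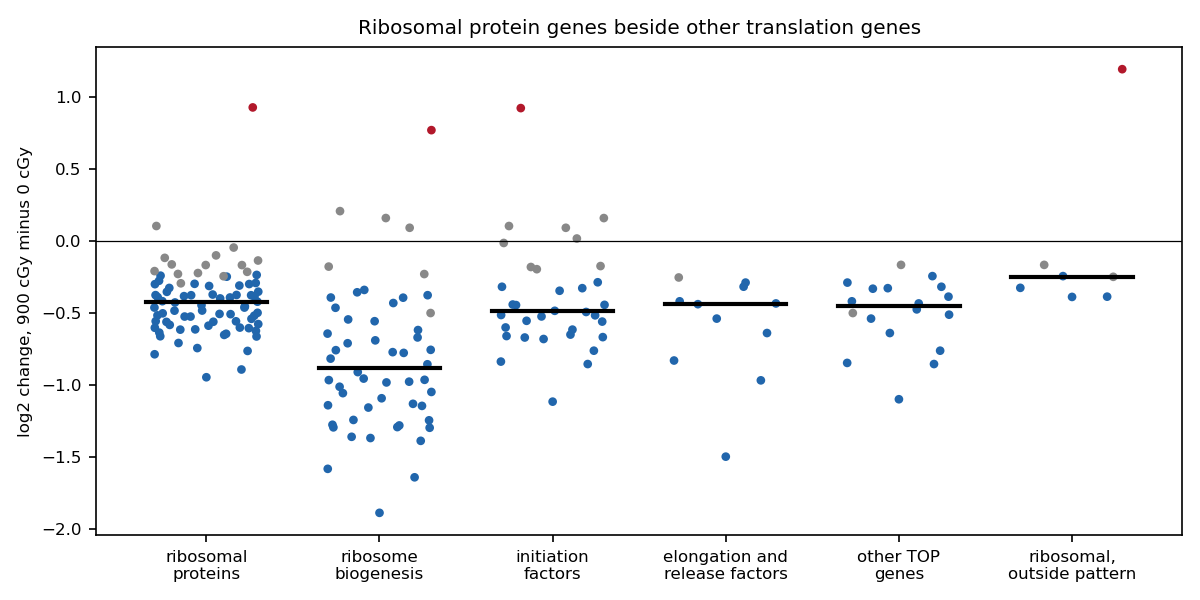
Log2 change, 900 cGy minus 0 cGy, of each tested gene (points) in the ribosomal protein genes and in 5 other lists, with the median of each list as a bar. Blue is lower and red higher at an adjusted p of 0.05, grey did not pass; the medians are -0.43, -0.89, -0.49, -0.44, -0.46 and -0.25 from left to right.

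The transcription starts of the members were searched for the tract, here a C followed by at least 5 bases that are each C or T, on the sense strand in a window of 30 bases that runs from 10 before to 20 from the start that RefSeq gives (GRCm38.p6). The tract was present in 35 of 61 members with an entry (57.4%) and in 24.9% of 27025 genes. The windows of the 3 genes with the largest falls and of the pair Rps27 and Rps27l are printed to show how they differ, with the tract in capitals.
Rps7, chr12:28635934-28635963, minus strand: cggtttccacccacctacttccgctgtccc
Rpl5, chr5:107900518-107900547, plus strand: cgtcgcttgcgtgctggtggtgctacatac
Rps15a, chr7:118116128-118116157, minus strand: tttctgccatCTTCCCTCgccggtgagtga
Rps27, chr3:90213629-90213658, minus strand: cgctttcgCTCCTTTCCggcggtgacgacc
Rps27l, chr9:66946076-66946105, plus strand: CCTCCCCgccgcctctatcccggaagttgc
Rps27, Rps15a and Rps27l held a tract of 9, 8 and 7 bases in the window. That of Rps15a begins at the listed start and that of Rps27 spans it. That of Rps27l, the gene that rose, lies wholly within the 10 bases before the listed start and so outside the transcript it gives. A second listed start of Rps27l held none. The counts take a tract anywhere in the window. The windows of Rps7 and Rpl5 do not hold these letters, which says nothing of the start used in spleen. The median change was -0.49 in the 35 tested members with the tract, 29 of them lower, and -0.45 in the 25 without, 18 of them lower. Over all genes tested 31% were lower. The difference between members with and without the tract was not tested.

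Markers of cell types moved on the same arrays, where 31% of all genes tested were lower and 28.3% higher. All 9 B cell markers tested (such as Cd79a and Cd79b) were lower, and their summed level relative to the 75th percentile went from 290 to 376 down to 50.2 to 55.8. All 8 markers of dividing cells tested (Mki67, Top2a) were lower, from 55.5 to 162 down to 13.4 to 14.4. All 11 erythroid markers tested were lower, from 542 to 825 down to 235 to 308. That sum follows mostly its brightest gene, Hba-a1, with a log2 change of -0.73. The median log2 change was -6.36 for the erythroid list, -2.81 for B cells, -2.74 for dividing cells and -1.76 for T cells. Of 10 T cell markers 9 were lower and 1 higher, from 76.5 to 111 down to 31.7 to 32.8. All 10 macrophage markers were higher, from 161 to 171 up to 632 to 656, as were all 6 plasma cell markers, from 85.1 to 112 up to 213 to 233. Of 13 exocrine pancreas markers, genes foreign to spleen, 12 were higher, from 2.44 to 196 up to 1473 to 1870. Of 8 neutrophil markers 2 were lower and 1 higher, and of 5 platelet markers 1 was higher, shares no larger than those over all genes tested.

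The part of these shifts in cell types in the fall of the ribosomal protein genes was not tested. On unirradiated arrays 1, 2 and 3 the summed pancreas markers were 2.44, 196 and 36.1, while Rps27l read 4.63, 4.38 and 4.08 and the variant 1 probe of Rps24 read 5.40, 5.56 and 5.73. On the same arrays the summed markers of dividing cells were 162, 136 and 55.5, and the median of the ribosomal protein genes relative to the group mean was 0.01, 0.06 and -0.07. Whether these shifts have a part in the rise of Rps27l or of the Rps24 probe was not tested either.

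All 6 arrays were on 1 slide and in 1 scan. The first row of the slide held the 3 unirradiated arrays and 1 irradiated array, and the second row the other 2 irradiated arrays. Within the first row the median change of the members was -0.42, and with its 4 arrays 10 members were lower and Rps27l was higher (background 14.8% lower and 16.8% higher). Among those 10 were Rps7, Rpl5, Rps15a, Rps18, Rps26, Rpl3l, Rpl23a, Rpl12 and Rps25. With the row as a block 42 were lower and 1 higher (background 23.6% and 21.3%). Quantile normalization, which forces the same distribution on every array, left 42 lower calls with a median of -0.24 (background 30.3% lower), and scaling to the spike-in controls gave 71 with a median of -0.70 (background 40.1% lower), while the median of all genes went from -0.06 to -0.33. Relative to the median of all genes the members stood at -0.37 with the 75th percentile and at -0.20 with quantile normalization. The spike-ins also give -0.37, but both scalings shift all genes of an array by 1 constant, so these 2 values cannot differ. Under all 6 scalings run, 70 members kept a negative change and 39 kept their call as lower; Rpl7, Rpl10, Rpl24, Rpl38, Rpl39l, Rps12, Rps14, Rps24 and Rps29 changed sign under at least 1.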

How the data were processed

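The authors read the arrays with Agilent Feature Extraction 10.5.1.1, per the submitters' processing notes and the file headers; the deposited processed intensity is background-subtracted and detrended within an array and is not normalized between arrays. The authors' deposited table holds log2 values that match the scanner values after division by the 75th percentile and centring of every probe on its median (Pearson r at least 0.9999 per array). Its column medians were 0.047, -0.0059 and -0.046 (0 cGy) and -0.025, 0.018 and -0.0083 (900 cGy). It served as an alternative.

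Control spots and outlier-flagged spots were left out, spots of a probe were averaged, and 11 probes with a missing value, none of a member, were dropped. From each array's log2 processed intensity the log2 of its 75th percentile over 59305 non-control spots was subtracted (1166, 1152 and 1403 unirradiated; 1144, 1114 and 1182 irradiated). Members kept the name in the files; other probes were named through a RefSeq table (GRCm38.p6) where accession, symbol or synonym matched (31193 probes), and 24300 kept their name. The 2 probes whose RefSeq symbol alone would match the name pattern (Rps4y2 and Gm6251) were not taken as members. A gene was read from the probe with the highest mean, kept if 1 group or both had that probe well above background on each of its 3 arrays.

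Groups and replicate numbers came from the titles. The fit was limma 3.58.1 (lmFit and eBayes, two-sided, R 4.3.3). Its p-values were Benjamini-Hochberg adjusted over all genes, or over all probes for probe values, with a threshold of 0.05. In simulated data with 200 of 26635 genes changed, it recovered 11.9% of log2 changes of 0.5, 59.7% of 1 and 90.9% of 2. There were 6 false calls. Far more genes were called in the real data, so these shares need not hold there. SE is the moderated standard error of the log2 change. Ratios within an array had an exact two-sided permutation test over the 6 arrays (SciPy 1.17.1). Named genes were the 8 largest and 8 smallest changes among members well above background on all 6 arrays, paralogs ending in l with their partners, members with roles beyond the ribosome, the 3 smallest adjusted p, and up to 3 genes of each other list. Some genes named by these rules are counted but not reported singly here. The members, lists and rules were chosen with earlier results of these data known. Names given for cell type lists are 9 sets of marker genes. Probe positions are those of the files on mm9, and start windows those of RefSeq on GRCm38.p6. The alternatives were normexp background correction, quantile normalization, both, median and spike-in scaling, the authors' table, other filters on dim probes, the mean of a gene's probes, a replicate block, the slide row, and leaving out each array.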

Additional observations from a re-analysis of the deposited data

How the results depend on the processing

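The rise of Rps27l and the single higher call kept their direction and side of the threshold under all 18 alternatives. The difference of Rps27l from Rps27 kept its sign (1.17 to 1.58), with no exact permutation p able to pass in this design. Several of the alternatives could not move that difference, as given below. The variant 1 probe of Rps24 stayed higher past the threshold under the 17 alternatives run for it, added after its values were seen. The count of 65 lower genes moved most to 42 with quantile normalization, 42 with the slide row as a block and 10 within slide row 1; it was 45 with normexp and quantile normalization together. The median of -0.43 moved to -0.24 with quantile normalization, -0.22 with normexp and quantile normalization, -0.70 with spike-in scaling and -0.51 with the mean over all probes of a gene. The cause of these shifts was not tested, except that slide row 1 holds only 4 arrays. Leaving out each array in turn gave 52 to 71 lower genes (52 of the 65 kept their call each time), 1 higher gene, medians of -0.47 to -0.41, 0.78 to 1.06 for Rps27l (limma adjusted p 0.00133 to 0.00970) and 1.29 to 1.58 for its difference from Rps27. Spike-in scaling moved the higher share of all calls from 47.7% to 31.5%. Deviations of same-numbered arrays from their group means had correlations of 0.07, 0.12 and -0.00 over genes. Differently numbered arrays were not compared, so these values cannot show whether the numbers pair samples. With the replicate block 54 members were lower and 1 higher (background 28.4% and 26.8%), and Rps27l had a limma adjusted p of 0.00547. In this balanced design that block cannot move a log2 change, so the 0.92 of Rps27l and the median of -0.43 were fixed in advance. The difference of 1.41 was computed without the replicate or slide row block, so neither could move it. Median scaling, spike-in scaling, the authors' table and the other filters on dim probes could not move it either. They shift a whole array or a whole probe by 1 constant, or change no value. Of the 65 genes, 38 kept their call under every alternative except slide row 1 alone, where most did not. Dim probes such as those of Rpl3l and Rpl39l limit what can be said of these paralogs.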
